A study of Mus musculus with 18 samples.

Results

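The 32 genes described here encode the enzymes of mevalonate and sterol synthesis, the factors that regulate them, sterol transporters and 3 enzymes of fatty acid synthesis and desaturation. They were taken as a fixed list of gene symbols, matched to Ensembl identifiers, by a rule that uses no measured value, although earlier results of these data were known when the list was made. All 32 matched among the 47643 genes of the count table, and 31 were among the 14309 genes with enough counts to be tested. RNA had been sequenced from 18 libraries of MPC3 cells, a line of mouse prostate cancer, in a series that compares knockdown of Rnf185 with control. The 6 control libraries carry plko in their titles and Control as their treatment. Another 6 libraries carry the short hairpin RNA shRNF185.1 and 6 carry shRNF185.3, and both of these groups are labelled as RNF185 knockdown. All 3 groups are untreated otherwise as far as the labels say, and the labels do not give the genotype of MPC3 or whether a hairpin line is a clone or a pool. Replicates 1 and 2 of each group belong to batch 1, replicates 3 and 4 to batch 2 and replicates 5 and 6 to batch 3, per the labels. Nothing in the labels says whether replicates were separate cultures, so p-values here measure the spread between these libraries, which may be technical. The deposited counts are named for a batch adjustment, and the main test has no batch term. That spread is therefore what is left after the adjustment, and p-values may be too small. Values given by batch also come from these counts.

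Cells build cholesterol in the endoplasmic reticulum from acetyl-CoA, first through mevalonate and isoprenoid units to squalene and then through a series of sterols. When membrane sterol runs low, the escort protein SCAP carries the SREBP factors, encoded by Srebf1 and Srebf2, to the Golgi for cleavage, and the released fragments raise transcription of the enzyme genes. INSIG proteins hold SCAP back when sterol is plentiful. RNF185 is a ubiquitin ligase of the endoplasmic reticulum membrane that takes part in the removal of membrane proteins, and the protein made from Cyp51, an enzyme of this pathway, is a known substrate of it. The counts measure messenger RNA and not protein.

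Totals ranged from 22027395 to 43379662 counts per library. Levels are given as deposited CPM, the counts scaled by an effective library size. Rnf185 itself lay between 33.6 and 38.4 CPM in control, between 5.21 and 6.80 CPM under shRNF185.1 and between 5.19 and 6.72 CPM under shRNF185.3, so every hairpin library was below every control library. Its log2 fold change was -2.63 with each hairpin (SE 0.07, edgeR adjusted p 9.3e-15 and 1.91e-14). Among markers of the cell type, the keratins Krt8 and Krt18 were abundant in every library (lowest 698 and 144 CPM), and the prostate factor Hoxb13 was at 43.8 CPM or more. The prostate markers Pbsn and Tmprss2 were near 0, with 0 counts and at most 13 counts in a library, and the epithelial marker Epcam had at most 7. The immune genes Ptprc and Adgre1 and the endothelial genes Pecam1 and Cdh5 did not exceed 11 counts, while the immune marker Cd68 was at 2.41 to 5.05 CPM in control and was lower under shRNF185.1 (1.74 to 2.86 CPM, -0.68, edgeR adjusted p 0.0117), with -0.47 under shRNF185.3 (2.20 to 3.17 CPM, adjusted p 0.0767). Other programmes moved with the hairpins. All 3 tested epithelial markers were lower with each hairpin, with summed levels of 1430 to 1750 CPM in control, 879 to 1160 under shRNF185.1 and 953 to 1020 under shRNF185.3. Of 6 interferon response genes, 5 were higher with each hairpin, with summed levels of 4.08 to 24.0 CPM in control, 63.6 to 108 under shRNF185.1 and 35.5 to 114 under shRNF185.3. The exceptions, named after their values were seen, were Mx1 under shRNF185.1 (0.71, edgeR adjusted p 0.323) and Irf7 under shRNF185.3 (1.23, adjusted p 0.0523). Of 3 mesenchymal markers, 2 were higher with each hairpin: Zeb1 (0.24 and 0.26, edgeR adjusted p 0.0118 and 0.00832) and Pdgfrb (0.36 and 0.58, adjusted p 0.00115 and 9.29e-06). Vim was at 0.06 and 0.07 and was not called, and the summed level of the 3 was 2960 to 3920 CPM in control, 3500 to 3880 under shRNF185.1 and 3400 to 3880 under shRNF185.3. The part of these programmes and of Cd68 in the sterol gene results was not tested.

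In the main edgeR fit, a smaller share of the sterol genes than of all genes was called against control with each hairpin. The gap was of few genes. It was absent for shRNF185.3 in the fit with a replicate block and an offset, given below. The part of the members' larger standard errors, also given below, in this gap was not tested. With shRNF185.1, 6 of the 31 tested members (19.4%) had an adjusted p under 0.05 in edgeR's quasi-likelihood test, 3 higher and 3 lower, beside 28.9% of all genes tested. Mvk, Scap and Npc1 were the higher ones, and Sc5d, Ebp and Srebf2 the lower ones. With shRNF185.3, 4 of 31 (12.9%) passed, beside 27.3% of all genes. Mvk and Npc1 were higher, and Ebp and Stard4 were lower. Mvk, Npc1 and Ebp were thus called in the same direction with both hairpins, 3 of 31 members, beside 16.1% of all genes (8.99% higher and 7.13% lower). The 2 comparisons share the control libraries. For the mean of both hairpins against control, 5 members were called (Mvk and Npc1 higher, and Ebp, Sc5d and Stard4 lower), beside 32.9% of all genes. The median log2 fold change of the members was 0.04 under shRNF185.1 and -0.04 under shRNF185.3, and that of all genes was -0.02 in both cases. The counts depended on the libraries and settings. Without batch 1, 3 members were called under shRNF185.1, beside 15.5% of all genes. Without batch 3, 2 were called under shRNF185.3, beside 17.4%. With the replicate number as a block together with a GC and length offset, 10 of 31 were called under shRNF185.3, beside 31.7%. In that fit the median log2 fold change of all genes under shRNF185.3 was -0.06. With batch as a term, 5 members were called under shRNF185.1 and 4 under shRNF185.3, beside 24.9% and 22.8% of all genes.

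**Figure D1:**
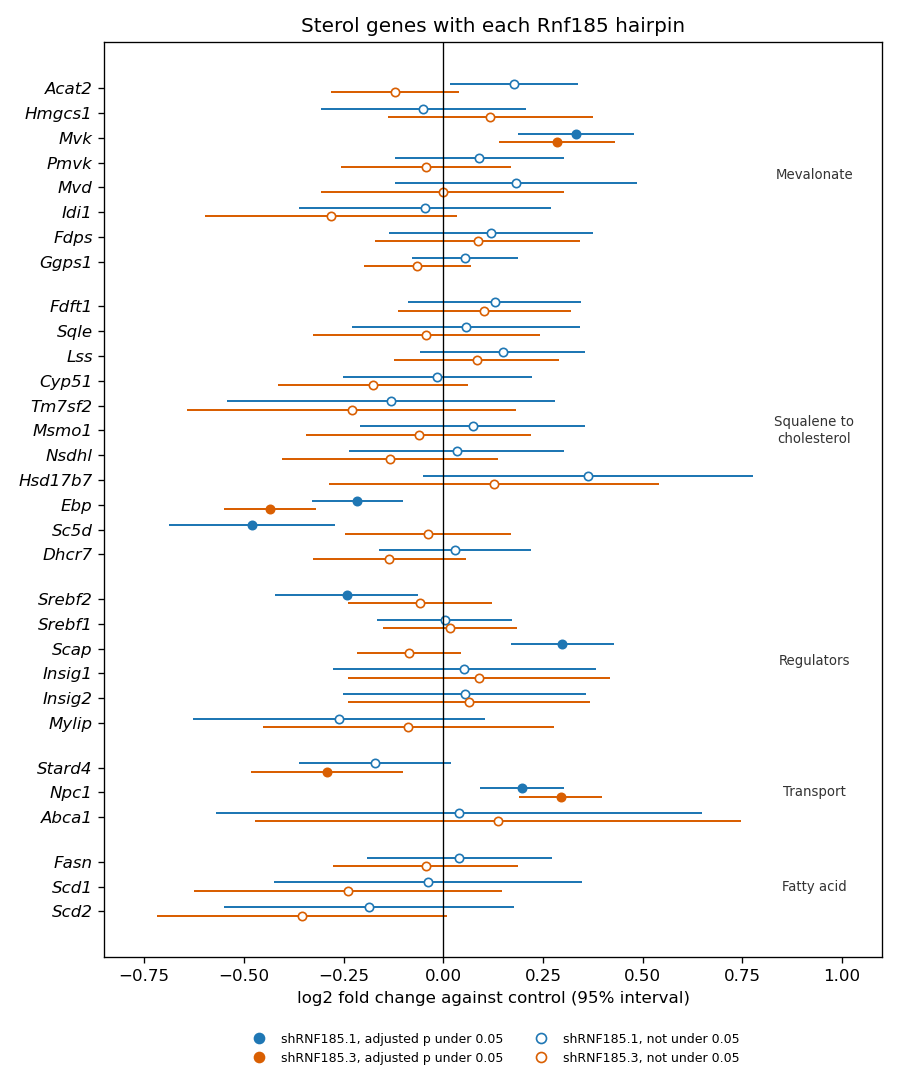
Log2 fold change of each of the 31 tested sterol genes against control under shRNF185.1 (blue) and shRNF185.3 (orange), as points with 95% intervals, grouped by role from top to bottom. Filled points have an edgeR adjusted p under 0.05: 6 under shRNF185.1 and 4 under shRNF185.3, with Mvk and Npc1 to the right and Ebp to the left of 0 for both hairpins.

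The effects were small, and the data bounded those that did not pass. None of the 31 members had a 95% interval that reached a log2 fold change of 1 in either direction with either hairpin. Of the 25 members not called under shRNF185.1, 20 had an interval within 0.5 of 0 on the log2 scale, and of the 27 not called under shRNF185.3, 21 did. The widest bounds among them were -0.63 for Mylip and 0.77 for Hsd17b7 under shRNF185.1, and -0.72 for Scd2 and 0.74 for Abca1 under shRNF185.3. Most members varied more between libraries of a group than the typical gene of at least 10 CPM. Their median standard error was 0.11 with either hairpin, against 0.07 for the 9323 genes averaging at least 10 CPM, and 26 of the 31 lay above that median.

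The first steps, from acetyl-CoA to the isoprenoid chains, were represented by 8 enzymes, of which 1 was called with each hairpin. This was Mvk, mevalonate kinase, which adds the first phosphate to mevalonate (ENSMUSG00000041939, chromosome 5 from 114444269 to 114460591 on the plus strand of GRCm38, GENCODE M21). In control its level was 34.3 to 44.9 CPM with a median of 38.1. With shRNF185.1 it was 43.1 to 54.8 CPM with a median of 47.2, and under shRNF185.3 it was 44.3 to 50.7 CPM with a median of 46.4. The control replicate from batch 1 with the highest level reached into the range of both hairpin groups, and the other 5 control libraries lay below all 12 hairpin libraries. Mvk rose by 0.33 on the log2 scale under shRNF185.1 (SE 0.07, edgeR adjusted p 0.00111), or 25.9%, and by 0.29 under shRNF185.3 (SE 0.07, adjusted p 0.00398), or 21.9%. By batch, from 1 to 3, the log2 differences were 0.17, 0.30 and 0.52 under shRNF185.1 and 0.15, 0.25 and 0.47 under shRNF185.3. Without batch 3 the shRNF185.3 value was 0.20 (adjusted p 0.0939). Between the hairpins the difference was -0.05, with a 95% interval from -0.19 to 0.10.

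Hmgcs1, the synthase that condenses acetyl-CoA units on the way to mevalonate and a classical SREBP target (ENSMUSG00000093930, chromosome 13 from 119690379 to 119708260, plus strand), was not called. Control libraries ranged from 102.5 to 159.5 CPM with a median of 136. The range was 107 to 163 with a median of 124 for shRNF185.1 and 132 to 171 with a median of 140.5 for shRNF185.3. All 3 groups overlapped. The log2 fold change was -0.05 under shRNF185.1 (95% interval -0.30 to 0.21, edgeR adjusted p 0.799) and 0.12 under shRNF185.3 (-0.14 to 0.37, adjusted p 0.509). On the opposite strand, Gm48342 overlaps 12.1% of its exonic length.

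Acat2, the cytosolic thiolase that supplies acetoacetyl-CoA (ENSMUSG00000023832, chromosome 17 from 12942890 to 12960747, minus strand), was called between the hairpins and was not called against control. Its control range was 78.8 to 104 CPM with a median of 91.3. It reached 93.4 to 116 with a median of 101 in shRNF185.1 libraries and 76.5 to 93.3 with a median of 80.3 in shRNF185.3 libraries. In deposited CPM the highest shRNF185.3 library was just below the lowest shRNF185.1 library, and on edgeR's log2 CPM, scaled on the tested genes, these libraries overlapped. The log2 fold change against control was 0.18 under shRNF185.1 (edgeR adjusted p 0.0879) and -0.12 under shRNF185.3 (adjusted p 0.25), and shRNF185.3 was lower than shRNF185.1 by -0.30 (SE 0.08, adjusted p 0.0109). With libraries summed by group and batch, the shRNF185.1 value was 0.20 with an adjusted p of 0.0363, under the threshold. The call between the hairpins was lost without batch 1 (-0.27, adjusted p 0.152) and without batch 2 (-0.30, adjusted p 0.057). The value is uncertain because 33.9% of the 75-base windows of Acat2 transcripts also occur in Acat3. Acat3 was listed at 0.81 to 2.90 CPM over the 18 libraries.

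The remaining mevalonate enzymes were not called with either hairpin. Pmvk and Mvd, the kinase and decarboxylase after Mvk, had log2 fold changes of 0.09 and 0.18 under shRNF185.1 and -0.04 and -0.0014 under shRNF185.3. Idi1, the isomerase of the isoprenoid unit, was at -0.05 and -0.28 (edgeR adjusted p 0.847 and 0.176). Fdps and Ggps1, which join isoprenoid units into longer chains, were at 0.12 and 0.05 under shRNF185.1 and at 0.09 and -0.06 under shRNF185.3. For Fdps and Idi1, 23.5% and 16.7% of transcript windows also occur in other genes, and 26.7% of the exonic length of Fdps overlaps Gm43738 on the same strand, so their levels are uncertain.

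From squalene to cholesterol there were 11 enzymes, with 2 called lower under shRNF185.1 and 1 called lower under shRNF185.3. Ebp, the isomerase that moves a double bond in the sterol ring (ENSMUSG00000031168, chromosome X from 8185329 to 8193512, minus strand), was called with both and formed 3 steps. Control libraries lay between 53.2 and 65.7 CPM with a median of 56.3. With shRNF185.1 they lay between 46.2 and 51.9 CPM with a median of 49.9, and under shRNF185.3 between 39.5 and 45.3 CPM with a median of 42.9. No library of a group overlapped another group. Ebp fell by 0.22 on the log2 scale under shRNF185.1 (SE 0.05, edgeR adjusted p 0.00463), or 13.9%, and by 0.43 under shRNF185.3 (SE 0.05, adjusted p 6.85e-06), or 26.0%. By batch, from 1 to 3, they were -0.38, -0.17 and -0.09 under shRNF185.1 and -0.54, -0.42 and -0.34 under shRNF185.3. The shRNF185.1 call was lost without batch 1 (-0.13, adjusted p 0.148). The hairpins differed from each other by -0.22 (SE 0.05, adjusted p 0.00867), which was lost without batch 2 (-0.21, adjusted p 0.0813) and without batch 3 (-0.20, adjusted p 0.0772).

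Sc5d, the desaturase that acts after Ebp (ENSMUSG00000032018, chromosome 9 from 42251595 to 42264256, minus strand), was called lower under shRNF185.1 and not under shRNF185.3. Control libraries spanned 57.0 to 79.6 CPM with a median of 73.6. With shRNF185.1 the span was 42.0 to 66.0 CPM with a median of 49.8, and under shRNF185.3 it was 62.7 to 76.96 CPM with a median of 70.5. A single control library, at 57.0 CPM, fell within the shRNF185.1 range. Sc5d fell by 0.48 under shRNF185.1 (SE 0.10, edgeR adjusted p 0.00109), or 28.3%, and was at -0.04 under shRNF185.3 (SE 0.10, adjusted p 0.805). By batch, from 1 to 3, the values were -0.64, -0.55 and -0.27 under shRNF185.1 and -0.14, 0.01 and 0.03 under shRNF185.3. The difference between the hairpins was itself called, at 0.44 (SE 0.10, adjusted p 0.0044), and was lost without batch 1 (0.42, adjusted p 0.0792) and without batch 2 (0.38, adjusted p 0.104).

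Cyp51, the lanosterol demethylase (ENSMUSG00000001467, chromosome 5 from 4081145 to 4104746, minus strand), was not called in any comparison. Its level was 162 to 241 CPM in control with a median of 211. It was 175 to 233 CPM with a median of 197.5 in shRNF185.1 libraries and 156 to 226 CPM with a median of 169 in shRNF185.3 libraries. The 3 groups overlapped over most of their range. The log2 fold change was -0.01 under shRNF185.1 (SE 0.11, 95% interval -0.25 to 0.22, edgeR adjusted p 0.938) and -0.18 under shRNF185.3 (SE 0.11, -0.41 to 0.06, adjusted p 0.261). By batch, from 1 to 3, the values were -0.06, -0.08 and 0.12 under shRNF185.1 and -0.41, -0.05 and -0.06 under shRNF185.3. With a block for the replicate number together with a correction for GC content and length, the shRNF185.3 value was -0.19. Its edgeR adjusted p was 0.037, under the threshold. The median log2 fold change of all genes under shRNF185.3 was -0.06 in that fit and -0.02 in the main fit. The hairpins differed by -0.16, with an interval from -0.40 to 0.07.

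**Figure D2:**
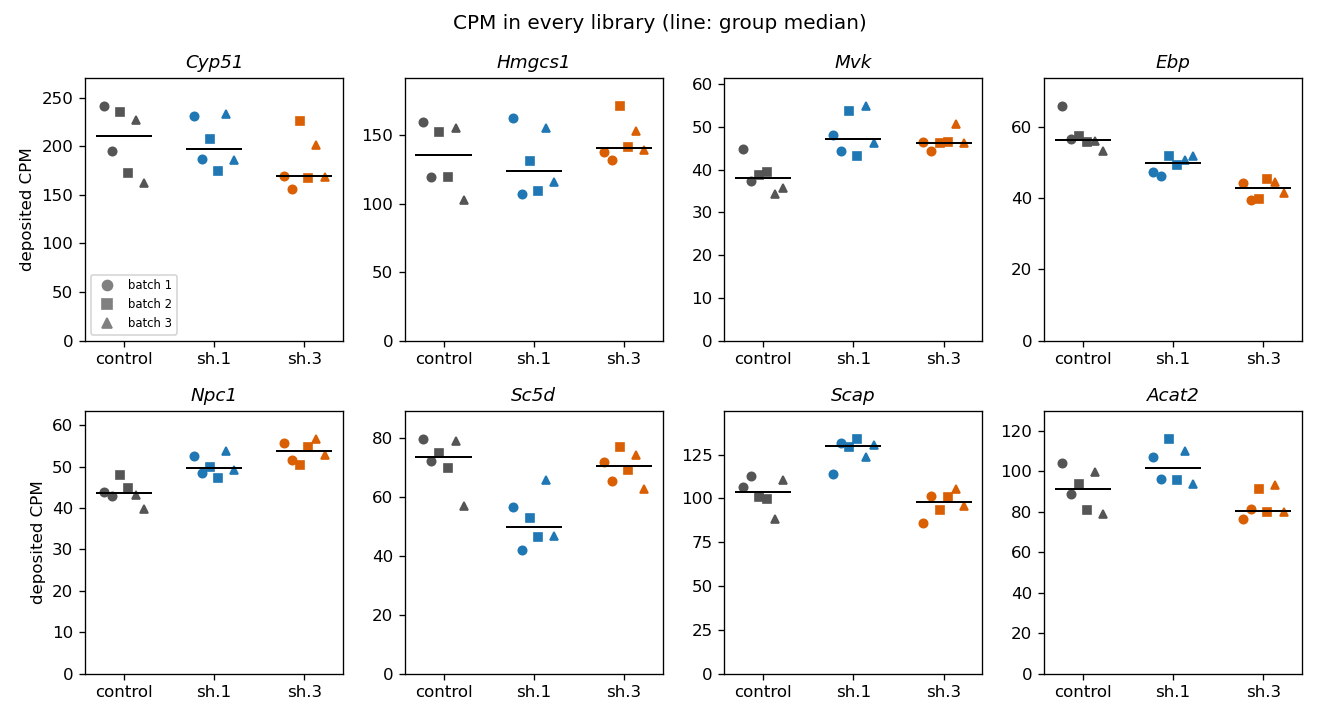
Deposited CPM (y axis, from 0) of 8 sterol genes in each of the 18 libraries, by group (sh.1 is shRNF185.1 and sh.3 is shRNF185.3), with the symbol giving the batch and the line the group median. Ebp steps down from control to shRNF185.1 to shRNF185.3 without overlap, Npc1 under shRNF185.3 lies above all control libraries, and Scap under shRNF185.1 lies above every library of the other groups.

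The other 8 enzymes of this stretch were not called with either hairpin. Fdft1, Sqle and Lss make squalene, oxidise it and close the sterol rings. Sqle, the highest of these 3 per kb of exonic length, was at 0.06 under shRNF185.1 (95% interval -0.23 to 0.34) and -0.04 under shRNF185.3 (-0.33 to 0.24). Fdft1 and Lss were at 0.13 and 0.15 under shRNF185.1 and at 0.10 and 0.08 under shRNF185.3. Ctsb, a lysosomal protease gene on the opposite strand, overlaps 18.3% of the exonic length of Fdft1 and was higher with each hairpin by 0.69 (edgeR adjusted p 2.68e-06 and 2.86e-06). Msmo1, Nsdhl and Hsd17b7 act together in removing methyl groups. Their log2 fold changes were 0.07, 0.03 and 0.36 under shRNF185.1 and -0.06, -0.13 and 0.13 under shRNF185.3. Hsd17b7 had the widest interval of the 3, from -0.05 to 0.77 under shRNF185.1. Tm7sf2 and Dhcr7, reductases of the sterol ring, were at -0.13 and 0.03 under shRNF185.1 and at -0.23 and -0.14 under shRNF185.3. Tm7sf2 was scarce, at 4.69 to 10.6 CPM over all libraries, and 12.1% of its exonic length overlaps Vps51 on the same strand.

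Of 6 regulators, 1 was higher and 1 lower under shRNF185.1, and 0 passed under shRNF185.3, where the smallest adjusted p was 0.321 (edgeR). With the GC and length offset, Scap (-0.20, adjusted p 0.0212) and Srebf2 (-0.16, adjusted p 0.0488) were called lower under shRNF185.3. The median log2 fold change of all genes under that hairpin was -0.06 with the offset and -0.02 in the main fit. Scap, the escort of the SREBP factors (ENSMUSG00000032485, chromosome 9 from 110333288 to 110384950, plus strand), was the higher one. Control libraries were between 88.2 and 113 CPM with a median of 104. The shRNF185.1 libraries were between 114 and 134 CPM with a median of 130.0, and the shRNF185.3 libraries between 85.9 and 106 with a median of 98.2. All 6 shRNF185.1 libraries lay above every other library. Scap rose by 0.30 under shRNF185.1 (SE 0.06, edgeR adjusted p 0.00102), or 23.0%, and was at -0.09 under shRNF185.3 (SE 0.06, adjusted p 0.321). By batch, from 1 to 3, the values were 0.16, 0.38 and 0.36 under shRNF185.1 and -0.23, -0.05 and 0.03 under shRNF185.3. The hairpins differed by -0.38 (SE 0.06, adjusted p 0.000224), and this held under all 14 alternative settings tried. On the opposite strand, 5830462I19Rik overlaps 13.2% of the exonic length of Scap.

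Srebf2, which encodes the SREBP factor most tied to sterol synthesis, was the lower one. Its range was 349 to 485 CPM in control with a median of 401, 302 to 420.5 CPM under shRNF185.1 with a median of 342, and 381 to 438 CPM under shRNF185.3 with a median of 385. The groups overlapped. The log2 fold change under shRNF185.1 was -0.24 (SE 0.08, edgeR adjusted p 0.0379), made of -0.31, -0.46 and 0.04 within batches 1, 2 and 3. This call was lost in 6 of 14 alternative settings, with values from -0.13 (adjusted p 0.329, without batch 2) to -0.24 (adjusted p 0.053, without the filter on low counts). With shRNF185.3 it was at -0.06 (adjusted p 0.652). Srebf1, the form most tied to fatty acid synthesis, was at 0.0034 and 0.017. Insig1 and Insig2 were at 0.05 and 0.05 under shRNF185.1 and at 0.09 and 0.06 under shRNF185.3, and Mylip, an LXR-induced ubiquitin ligase for lipoprotein receptors, at -0.26 and -0.09. None of these 4 was called.

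Among the 4 transporters, Npc1, which exports cholesterol from late endosomes and lysosomes (ENSMUSG00000024413), was called higher with both hairpins. It ranged from 39.9 to 48.0 CPM in control with a median of 43.5. With shRNF185.1 it ranged from 47.2 to 53.9 CPM with a median of 49.7, and under shRNF185.3 from 50.3 to 56.6 CPM with a median of 53.8. All shRNF185.3 libraries exceeded all control libraries, and under shRNF185.1 the groups overlapped by the highest control library. Npc1 rose by 0.20 under shRNF185.1 (SE 0.05, edgeR adjusted p 0.00449), or 14.7%, and by 0.30 under shRNF185.3 (SE 0.05, adjusted p 0.000156), or 22.7%. By batch, from 1 to 3, the values were 0.22, 0.06 and 0.31 under shRNF185.1 and 0.31, 0.18 and 0.40 under shRNF185.3. The shRNF185.1 call was lost without batch 1 (0.18, adjusted p 0.0952) and without batch 3 (0.14, adjusted p 0.102). Between the hairpins the difference was 0.10, with an interval from -0.0037 to 0.20 and an adjusted p of 0.215.

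Stard4, a soluble carrier of sterol between membranes, was lower under shRNF185.3. Its range was 85.2 to 119 CPM in control, 81.3 to 103 under shRNF185.1 and 77.1 to 107 under shRNF185.3, with medians of 104, 94.9 and 82.5. The log2 fold change was -0.29 under shRNF185.3 (SE 0.09, edgeR adjusted p 0.0208) and -0.17 under shRNF185.1 (adjusted p 0.166). The shRNF185.3 call was lost without batch 1 (-0.23, adjusted p 0.209), without batch 3 (-0.32, adjusted p 0.0619) and when libraries were summed by group and batch (-0.27, adjusted p 0.0533). Abca1, which exports cholesterol to lipoproteins under LXR, was not called, and its within-batch differences under shRNF185.1 ran from -1.15 in batch 2 to 0.84 in batch 3. Abcg1, its partner exporter, had 0 counts in all 18 libraries. A floor of 3 counts corresponds to 0.07 to 0.13 CPM in these libraries, for counting error only.

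The 3 fatty acid genes, Fasn, Scd1 and Scd2, encode the synthase and desaturases that make monounsaturated chains. Scd2 was the most abundant member, at 1073 to 2297 CPM in control, 922 to 1885 under shRNF185.1 and 1076 to 1575 under shRNF185.3. Its log2 fold change was -0.19 and -0.35 (edgeR adjusted p 0.448 and 0.136). Scd1 was at -0.04 and -0.24 and Fasn at 0.04 and -0.04, and none of the 3 was called with either hairpin. Since these are bulk libraries, fewer cells expressing a gene and less of its RNA per cell cannot be told apart here or for any value above.

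Levels of different genes were compared per kb of exonic length. In control, Scd2 stood highest at a mean of 305 CPM per kb, followed by Scd1 at 84.0, Srebf2 at 57.3 and Fasn at 53.5. Among the sterol enzymes Cyp51 was highest at 46.5 CPM per kb, then Sqle at 43.7, Fdps at 40.5 and Acat2 at 35.8. The order of Cyp51 and Sqle was not tested. Over 6 control libraries the SD, in CPM not divided by length, was 33.8 for Cyp51 and 45.5 for Sqle. Mvk, at 14.4 CPM per kb, and Ebp, at 24.9, were of middle rank. The lowest tested members were Tm7sf2 at 1.72, Mylip at 1.62 and Abca1 at 1.498 CPM per kb.

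The direct comparison of the hairpins called 4 members, or 12.9% of the 31, beside 14.7% of all genes (7.72% higher and 6.94% lower). Acat2, Ebp and Scap were lower and Sc5d was higher under shRNF185.3 than under shRNF185.1, as given above. Both hairpins left Rnf185 at the same level within error, with a difference of -0.00083 on the log2 scale (95% interval -0.16 to 0.16). Of the 19 synthesis enzymes, 17 had a log2 value below 0 in this comparison and 2 above, with a median of -0.13. Only 3 of them passed the test. Of all 14309 genes tested, 7171 were below 0 and 7138 above, with a median of -0.0004. The enzymes varied together between libraries, as described below, so their directions are not separate observations. On edgeR's log2 CPM, few members had groups whose libraries did not overlap. With shRNF185.1 they were Scap, higher, and Ebp, lower, 2 of 31, beside 12.8% of all genes (7.01% higher and 5.82% lower). Under shRNF185.3 they were Npc1, higher, and Ebp, lower, beside 13.3% of all genes (7.66% and 5.6%). Between the hairpins they were Ebp and Scap, both lower, beside 8.24% of all genes (4.58% and 3.66%).

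Apart from the groups, the enzymes varied together from library to library. Deviations from the group means over the 18 libraries were compared between members, where all points share their library's depth and scaling. Over the 171 pairs of the 19 synthesis enzymes the median Pearson r was 0.75, and 168 pairs were above 0. Genes outside the members were not compared in this way, so such values are not shown to be particular to the enzymes. The genes whose deviations were closest to those of Cyp51 were Msmo1 (r 0.98), Insig1 (0.95) and Nsdhl (0.94), and those closest to Hmgcs1 were Insig1 (0.95), Msmo1 (0.95) and Cyp51 (0.93). For Mvk they were Srebf2 (0.81), Mvd (0.81) and Pmvk (0.76). Ebp stood further apart, with Mvk (0.66) as its nearest, and the highest value for Scap was 0.23, with Srebf1.

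This shared variation differed between odd and even replicate numbers, a split of the libraries that was not in the planned design. A score for each library, the mean log2 CPM of the 19 enzymes minus the control mean, ran from -0.31 to 0.21 in control, from -0.23 to 0.30 under shRNF185.1 and from -0.20 to 0.15 under shRNF185.3. The group means with the hairpins were 0.04 and -0.04. Within each group and batch, the library with the odd number had the higher score in 9 of 9 pairs, by 0.09 to 0.38. By gene, 15 of the 31 members (48.4%) were higher in the odd library in all 9 pairs, among them Cyp51, Hmgcs1, Sqle, Msmo1, Insig1, Srebf2 and Scd1, beside 5.49% of all genes, and 0 members were lower in all 9, beside 4.88% of all genes. The enzymes varied together between libraries, so the members counted here are not separate observations. Cyp51 was higher by 0.13 to 0.49 in the odd library and Insig1 by 0.29 to 0.61. Of the members called with either hairpin, the odd library was higher in 9 of 9 pairs for Sc5d and Srebf2, 8 for Npc1, 7 for Ebp and Stard4, 6 for Mvk and 2 for Scap. The odd library had fewer counts in 6 of 9 pairs (ratio of odd to even 0.56 to 1.08) and the larger scaling factor in 9 of 9 (ratio 1.01 to 1.04). With library size alone as the scaling the count of members was 17, and with the GC and length correction it was 15. What distinguishes odd from even libraries is not given in the labels, and the part of depth or scaling in the pattern was not tested.

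**Figure D3:**
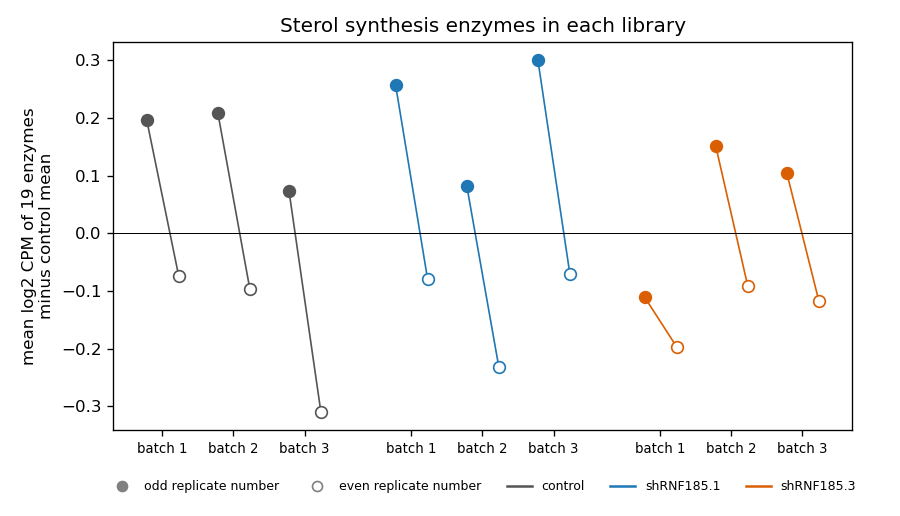
Mean log2 CPM of the 19 sterol synthesis enzymes minus the control mean (y axis) in each library, paired within group and batch, with filled points for odd and open points for even replicate numbers. The odd library is higher in 9 of 9 pairs, and the 3 groups cover overlapping ranges.

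Because the enzymes moved together between libraries, their promoters were read for the motifs known to serve SREBP responses. Windows from 250 bases before to 50 after a start came from RefSeq (GRCm38.p6), and 24 of the 32 members had one. Sqle, Fdft1, Fdps, Npc1, Stard4, Scd1, Scd2 and Abcg1 had none and were not searched. The sterol response element, searched as TCACNCCAC on both strands, was found in 1 of the 24, Hmgcs1, beside 1.44% of the 27025 genes with a window. The CCAAT box, bound by NF-Y, a partner of SREBP, was found as CCAAT on either strand in 21 of 24, beside 41.1% of genes. The GC box GGGCGG, bound by Sp1, was in 21 of 24 beside 38.2%, and the E box CACGTG in 6 of 24 beside 8.09%. No one of these motifs contains another. Base composition of the windows was not matched, and the genes with a window were not limited to those expressed here. A match to these letters is not evidence of binding, and a window without one does not show that binding is absent. The stretches upstream of the start of 4 genes are shown, as a classical SREBP target, the gene of the RNF185 substrate and the 2 enzymes called with both hairpins. They are the parts of the 250 upstream bases that GENCODE M21 places in no exon, read 5′ to 3′ on the gene's strand, with capitals for CCAAT or its reverse complement ATTGG and for the sterol response element TCACCCCAC of Hmgcs1. The regions are chr13:119690101-119690350 (plus strand) for Hmgcs1, chr5:4104747-4104947 (minus) for Cyp51, chr5:114444061-114444268 (plus) for Mvk and chrX:8193513-8193762 (minus) for Ebp.
Hmgcs1: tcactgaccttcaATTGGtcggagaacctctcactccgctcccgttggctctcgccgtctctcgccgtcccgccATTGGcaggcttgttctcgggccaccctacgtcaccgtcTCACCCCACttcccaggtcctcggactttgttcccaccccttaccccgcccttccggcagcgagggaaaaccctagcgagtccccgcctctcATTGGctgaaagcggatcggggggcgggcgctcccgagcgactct
Cyp51: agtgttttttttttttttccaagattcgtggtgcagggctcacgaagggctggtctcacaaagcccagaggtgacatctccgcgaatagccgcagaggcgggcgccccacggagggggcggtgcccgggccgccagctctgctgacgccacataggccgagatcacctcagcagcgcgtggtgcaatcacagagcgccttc
Mvk: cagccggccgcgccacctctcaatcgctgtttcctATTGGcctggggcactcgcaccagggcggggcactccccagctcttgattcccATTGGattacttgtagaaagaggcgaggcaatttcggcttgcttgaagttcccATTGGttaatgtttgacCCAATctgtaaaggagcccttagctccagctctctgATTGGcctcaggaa
Ebp: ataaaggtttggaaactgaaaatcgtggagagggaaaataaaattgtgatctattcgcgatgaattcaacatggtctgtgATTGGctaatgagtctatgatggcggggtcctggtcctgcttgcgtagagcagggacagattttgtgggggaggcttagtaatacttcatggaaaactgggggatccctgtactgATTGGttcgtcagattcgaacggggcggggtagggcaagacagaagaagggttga
In these stretches Mvk had 5 CCAAT boxes, Hmgcs1 had 3 and Ebp had 2. Cyp51 had 0 in the part shown, and its single match lay closer to the start, in bases that GENCODE M21 places in an exon.

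Genes around the pathway were counted in 6 lists. Among 8 accessory proteins of sterol synthesis, 1 was higher and 2 lower with each hairpin, beside 14.6% higher and 14.3% lower of all genes under shRNF185.1 and 14.2% and 13.1% under shRNF185.3. Cyb5a, the electron donor for sterol desaturation and demethylation steps, rose from 33.0 to 37.7 CPM in control to 44.4 to 50.4 under shRNF185.1 and 44.4 to 49.8 under shRNF185.3, with no overlap. Its log2 fold changes were 0.44 (SE 0.05, edgeR adjusted p 9.19e-07) and 0.39 (SE 0.05, adjusted p 3.38e-06). Lbr, an inner nuclear membrane protein with the same sterol reductase activity as Tm7sf2, fell from 94.6 to 121 CPM in control to 54.6 to 64.0 under shRNF185.1 and 70.9 to 87.9 under shRNF185.3. The changes were -0.84 (SE 0.06, adjusted p 1.98e-08) and -0.40 (SE 0.06, adjusted p 0.000103), and the hairpins differed by 0.44 (adjusted p 8.05e-05). Per kb of exonic length Lbr stood at 22.03 CPM in control, above Tm7sf2 at 1.72.

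Pgrmc1, a haem-binding membrane protein that associates with CYP51, was chosen for mention after its values were seen. It was at 107.5 to 126 CPM in control and 102 to 116 under shRNF185.3, but at 32.7 to 36.3 under shRNF185.1. The log2 fold change was -1.72 under shRNF185.1 (SE 0.04, edgeR adjusted p 3.11e-15) and -0.06 under shRNF185.3 (adjusted p 0.277), and the hairpins differed by 1.66 (adjusted p 6.23e-15). Erlin2, part of the complex that takes sterol-regulated proteins to degradation, was chosen in the same way. It was at -0.39 under shRNF185.1 (SE 0.04, adjusted p 1.6e-07) and 0.03 under shRNF185.3 (adjusted p 0.546), with a difference of 0.42 between them (adjusted p 1.31e-07).

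Of 14 genes for SREBP processing and sterol-responsive degradation, 1 was higher and 1 lower under shRNF185.1, and 1 higher and 2 lower under shRNF185.3. Rnf145, a ubiquitin ligase of the endoplasmic reticulum induced by LXR, was the one called with both, at 0.29 (SE 0.05, edgeR adjusted p 0.000492) and 0.21 (SE 0.05, adjusted p 0.00829). Its levels were 139 to 159 CPM in control, 165 to 195 under shRNF185.1 and 153 to 190 under shRNF185.3. The shRNF185.3 call was lost without batch 1 (0.20, adjusted p 0.0874) and without batch 2 (0.17, adjusted p 0.0679). Among 11 genes of the isoprenoid branches, 1 was higher and 1 lower under shRNF185.1, and 0 were higher and 3 lower under shRNF185.3. None passed with both.

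In the list for oxysterol formation and LXR, 1 of 10 was higher and 1 lower under shRNF185.1, and 2 were higher and 1 lower under shRNF185.3. Cyp7b1, an oxysterol hydroxylase, was called with both. It was scarce, at 1.67 to 3.62 CPM in control, 4.02 to 7.14 under shRNF185.1 and 4.72 to 8.60 under shRNF185.3, and rose by 1.07 (SE 0.18, edgeR adjusted p 0.000218) and 1.39 (SE 0.18, adjusted p 1.42e-05). Of 16 tested genes for sterol movement and storage, 4 were higher and 0 lower under shRNF185.1, and 3 were higher and 1 lower under shRNF185.3. Npc2, the lysosomal partner of NPC1, rose by 0.36 (adjusted p 0.0152) and 0.53 (adjusted p 0.000881), from 137.5 to 231 CPM in control to 220 to 278 under shRNF185.1 and 246 to 322 under shRNF185.3. The differences under shRNF185.1 were 0.17, 0.09 and 0.87 in batches 1, 2 and 3. Without batch 3 the shRNF185.1 value was 0.12 (adjusted p 0.196), and with libraries summed by group and batch it was 0.37 (adjusted p 0.0977), so the call was lost in both.

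Gramd1b, a carrier of plasma membrane cholesterol to the endoplasmic reticulum, rose by 0.77 and 0.80 (SE 0.15 each, edgeR adjusted p 0.000932 and 0.000693) from a low level of 2.73 to 4.83 CPM in control. Osbpl5, a lipid carrier of the oxysterol-binding family, rose by 0.23 and 0.21 (SE 0.04 each, adjusted p 0.000718 and 0.00188). For Osbpl5 the shRNF185.3 call was lost with the GC and length correction (0.11, adjusted p 0.0753) and without batch 3 (0.16, adjusted p 0.0583). Among 13 tested genes of fatty acid synthesis and desaturation outside the members, 2 were higher and 0 lower under shRNF185.1 and 0 were called under shRNF185.3, where the smallest adjusted p was 0.0539.

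Genes of these lists called with a single hairpin were named after their values were seen. Under shRNF185.1 the higher ones were Dhdds, which builds the dolichol chain, by 0.12, the lipoprotein receptor gene Scarb1 by 0.26, the acetoacetyl-CoA synthetase gene Aacs by 0.28 and Mid1ip1, an activator of acetyl-CoA carboxylase, by 0.18. Besides Pgrmc1 and Erlin2, the lower ones there were the prenyltransferase subunit gene Pggt1b and the LXR target Arl4c, at -0.20 each. Under shRNF185.3, Rxra, the partner of LXR, was higher by 0.24. The lower ones under that hairpin included Cyp27a1, which makes an oxysterol, at -0.98, the lysosomal membrane protein gene Scarb2 at -0.38 and the sterol enzyme scaffold Erg28 at -0.15. The ubiquitin-conjugating enzyme gene Ube2g2 was at -0.17, and Pdss2, Nus1 and Icmt of the isoprenoid branches at -0.26, -0.18 and -0.26. The hairpins differed from each other in Dhdds (-0.17), Icmt (-0.17), Ube2g2 (-0.14), Erg28 (-0.13), Scarb2 (-0.50) and Arl4c (0.23), with edgeR adjusted p-values from 0.000278 for Scarb2 to 0.0345 for Ube2g2, besides Pgrmc1 and Erlin2. The difference between the hairpins did not pass for Scarb1, Aacs, Mid1ip1, Pggt1b, Rxra, Cyp27a1, Pdss2 and Nus1.

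**Figure D4:**
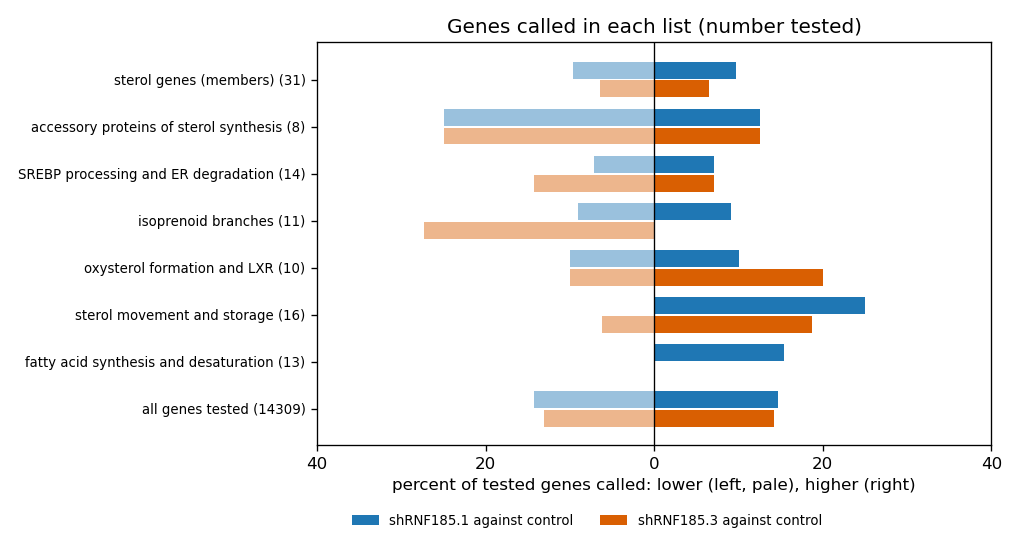
Percent of the tested genes called lower (left of 0, pale) and higher (right of 0) under shRNF185.1 (blue) and shRNF185.3 (orange) against control, for the sterol genes, 6 lists around the pathway and all 14309 genes tested. Numbers in brackets are the genes tested in each list; for the sterol genes the bars are 3 of 31 in each direction under shRNF185.1 and 2 of 31 under shRNF185.3, beside 14.6% higher and 14.3% lower of all genes for the first and 14.2% and 13.1% for the second.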

How the data were processed

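RNA from 18 libraries was sequenced as single-end reads of 75 bases after selection of polyadenylated RNA and preparation with a directional kit, per the labels' protocols. The submitters' processing notes name cutadapt 2.3, STAR 2.7.0d, RSEM 1.3.1 and the build mm10, with no role or order. The authors deposited estimated counts per gene in a table whose name cites ComBat-Seq, which adjusts counts for batch. Whether the adjustment was told the groups, which annotation was used and whether strand was used in counting are not given in the sources used here. Of the values, 0.466% were not whole, and all were rounded. The second deposited table is a scaled signal called CPM, the counts divided by an effective library size, with column sums from 969986 to 1026394. Symbols matched 99.1% of identifiers, and positions, overlaps and 75-base windows came from GENCODE M21.

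Counts were fitted in R 4.3.3 with edgeR 4.0.16 (TMM scaling, filterByExpr with a minimum count of 10, a mean per group over all 18 libraries). Contrasts used the quasi-likelihood F test with Benjamini-Hochberg adjustment over the 14309 genes tested, called at an adjusted p under 0.05. The planned design had taken the counts to be whole, which did not change the test. Standard errors come from the fold change and F statistic, 95% intervals are not adjusted, and scores use log2 CPM with a prior count of 2. Intervals and the floor of 3 counts cover these libraries only. The fit was run on simulated data with changes larger than those of the members, genes drawn independently and no batch adjustment. That run cannot show how the fit handles small changes or shared variation. The members, the 6 lists and the tests were chosen with earlier results of these data known. Named genes are all members, in full where called with both hairpins, between the hairpins, or Cyp51, and in each list up to 3 genes called in the same direction with both hairpins. Alternatives were another scaling, DESeq2 1.42.0, no filter, limma 3.58.1 on log2 of CPM plus 1 or 0.5, batch or replicate number as a term, a GC and length offset fitted with mgcv 1.9.3, each batch left out, and libraries summed by group and batch. Marker lists were fixed per cell type. Some genes of the marker and pathway lists are counted but their values are not reported here.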

Additional observations from a re-analysis of the deposited data

Results flagged for a closer look

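With the hairpins compared directly, 4 sterol genes differed: Acat2 by -0.30, Ebp by -0.22, Sc5d by 0.44 and Scap by -0.38 on the log2 scale (shRNF185.3 against shRNF185.1). In 2 groups a single library stood apart from the other 5. Mvd in shRNF185.3 replicate 5 was at 5.29 log2 CPM with the next library at 5.003, and Srebf2 in the same library was at 8.78 with the next at 8.63. Over the 93 groups of 6 values examined, 4.65 such cases would arise by chance.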

How the results depend on the processing

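Over 14 alternatives per comparison, the number of called sterol genes stayed within 1.5 times the main count except as follows. With shRNF185.1 (6 called) it was 3 without batch 1, beside 15.5% of all genes. With shRNF185.3 (4 called) it was 2 without batch 3 and 10 with the replicate block plus the offset for GC and length. The shares of all genes there were 17.4% and 31.7%. For the mean of both hairpins (5 called) it was 3 with library size alone, 3 without batch 1 and 3 without batch 2. All-gene shares were 31.8%, 18.7% and 37.7% in that order. Between the hairpins (4 called) it was 7 with the replicate block plus the offset for GC and length, 2 without batch 1 and 2 without batch 2. Beside these stood 17.4%, 5.27% and 8.42% of all genes. Leaving out a batch also leaves fewer libraries. With the replicate block alone 7, 4, 5 and 4 members were called, beside 26.6%, 25%, 30.1% and 13.8% of all genes. These members held all 6, 4, 5 and 4 of the calls without the block. The numbers were not shown to pair the libraries: same-numbered libraries of different groups had a mean correlation of -0.01 over 18 pairs (-0.63 to 0.70), while libraries of the other number in the same batch had -0.43 and libraries of other batches 0.11, beside the odd and even pattern described above. Acat2 was called under shRNF185.1 with the block (0.18, edgeR adjusted p 0.0234) and under shRNF185.3 with the block and the offset (-0.16, adjusted p 0.0401).

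Directions reversed for values that were not called. With shRNF185.1, Cyp51 was at 0.0097 with library size alone, 0.0071 without batch 1, 0.025 without batch 2 and 0.020 with libraries summed, Hmgcs1 at 0.013 without batch 2, Sqle at -0.095 and Insig1 at -0.074 without batch 3. With shRNF185.3, Sc5d was at 0.013 and Sqle at 0.044 without batch 1, Srebf2 at 0.026 and Sqle at 0.0063 without batch 2, and Insig1 at -0.014 without batch 3. Between the hairpins, Stard4 was at 0.016 and Sqle at 0.037 without batch 1, Insig1 at -0.13 and Osbpl5 at 0.018 without batch 2, and Gramd1b at -0.082 without batch 3. The cause was not tested.

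The GC and length offset moved the share of all called genes that were higher from 51.8% to 36.7% with shRNF185.3, from 48.9% to 37.9% for both hairpins and from 52.7% to 42.4% between the hairpins; without batch 1 the last was 62.4%. The odd and even split was not in the planned design, and its counts under other scalings were added after seeing the data. Intervals were wide for Tm7sf2, Mylip and Abca1, which had 117 or more counts in each control library (SE 0.195, 0.174 and 0.29 under shRNF185.1). They were also wide for the more abundant Hsd17b7 and Scd1 (SE 0.196 and 0.183). The cause was not tested.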
